A study of Homo sapiens with 6 samples.

Results

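Caveolae are flask-shaped pits of the plasma membrane, and the 8 genes described here encode the parts of their coat: the caveolins CAV1 and CAV2, the cavins PTRF (also named CAVIN1), SDPR (CAVIN2) and PRKCDBP (CAVIN3), the neck ATPase EHD2, and the membrane-curving F-BAR proteins PACSIN2 and PACSIN3. The genes were chosen by name, as parts of the coat, with earlier results of these data known. Of the 8 genes, 7 were among the 15897 genes listed with expression values, and 6 passed a filter of a mean FPKM of at least 0.5 over all libraries and were tested. FPKM is the number of fragments scaled to gene length and library size, so levels of different genes can be compared within it.

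A caveola forms when oligomers of caveolin, inserted in the inner leaflet of the membrane, recruit a shell of cavin trimers. PTRF is the cavin that all caveolae need, whereas the other cavins change their shape or traffic. The pits buffer membrane tension by flattening, and they are abundant in endothelium, adipocytes and muscle and, in the lung, in endothelium and type I alveolar cells.

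RNA-seq was carried out on total RNA of H1650, an established human lung adenocarcinoma cell line, in 3 control libraries whose genotype was labelled wild type and 3 libraries labelled shSETD2. The shSETD2 cells were made to deplete SETD2, the methyltransferase that trimethylates lysine 36 of histone H3, with short hairpin RNAs delivered by lentivirus. No source used here states whether the control cells of these libraries carried a control hairpin, or whether the 3 shSETD2 libraries used 3 hairpin constructs or 1. The p-values therefore measure the spread between these libraries, which may be technical. The comparison asks which coat genes differ between the libraries labelled shSETD2 and the control libraries. Because RNA of whole cultures was measured, fewer cells with a transcript and less of it per cell cannot be told apart.

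The targeted gene did not separate the groups. SETD2 was at 18.0, 10.2 and 17.6 FPKM in control, and in shSETD2 at 8.97, 8.09 and 12.2 FPKM, so control library 2 lay within the shSETD2 range, and the log2 fold change of -0.58 (SE 0.24) did not pass the test (limma, adjusted p = 0.0641). It passed without control library 2, at -0.83 (limma adjusted p = 6.66e-03), or without shSETD2 library 3, at -0.73 (limma adjusted p = 0.042). With median ratio scaling it was -0.27 (limma adjusted p = 0.343), and without control library 1 -0.45 (limma adjusted p = 0.181). Groups are therefore named by their labels. The study reports reduced SETD2 in knockdown H1650 cells by qPCR and western blot. Directly before the sequencing, it describes SETD2-silenced H1650 cells made with 3 hairpin constructs, whose knockdown efficiency it calls similar. It does not state which of these cells gave these libraries. Among all genes, replicates of 1 group correlated at a Pearson r of 0.982 to 0.990 and libraries of different groups at 0.701 to 0.707, on log2(FPKM + 1). Of 14068 genes tested, 26.8% were called higher in shSETD2 and 51.8% lower at an adjusted p under 0.05, and the median log2 fold change was -0.29. Of 12 lung epithelium markers, only NKX2-1 was listed, at 1.71, 1.80 and 1.44 FPKM in control libraries and at 0 in all shSETD2 libraries.

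The RefSeq promoter windows of 4 coat genes are shown here, those that were called higher in shSETD2 and had a window. PTRF and PACSIN3 were also called higher but had no window in the set used. Each runs 5′ to 3′ on the gene's strand from 250 bases before to 50 bases after the most upstream start that RefSeq gives for the gene, in build GRCh38.p14, which need not be the start of the GRCh37 loci given below. Capitals mark GC boxes (GGGCGG on either strand), the motif that Sp1-family factors bind. The windows lie at chr7:116524759-116525058 on the plus strand (CAV1), chr7:116499488-116499787 on the plus strand (CAV2), chr19:47713172-47713471 on the plus strand (EHD2) and chr22:43015100-43015399 on the minus strand (PACSIN2).
CAV1: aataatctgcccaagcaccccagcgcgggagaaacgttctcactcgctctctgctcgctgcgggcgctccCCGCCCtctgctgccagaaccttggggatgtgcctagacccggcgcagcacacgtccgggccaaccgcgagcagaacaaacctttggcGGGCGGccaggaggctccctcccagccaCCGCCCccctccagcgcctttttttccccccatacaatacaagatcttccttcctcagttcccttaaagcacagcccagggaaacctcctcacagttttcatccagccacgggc
CAV2: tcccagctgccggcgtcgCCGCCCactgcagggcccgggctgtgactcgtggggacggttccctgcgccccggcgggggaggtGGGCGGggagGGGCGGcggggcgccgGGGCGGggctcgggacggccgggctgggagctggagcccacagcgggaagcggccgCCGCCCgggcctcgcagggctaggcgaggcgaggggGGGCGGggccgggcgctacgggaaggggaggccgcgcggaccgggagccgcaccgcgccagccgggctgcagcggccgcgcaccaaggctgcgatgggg
EHD2: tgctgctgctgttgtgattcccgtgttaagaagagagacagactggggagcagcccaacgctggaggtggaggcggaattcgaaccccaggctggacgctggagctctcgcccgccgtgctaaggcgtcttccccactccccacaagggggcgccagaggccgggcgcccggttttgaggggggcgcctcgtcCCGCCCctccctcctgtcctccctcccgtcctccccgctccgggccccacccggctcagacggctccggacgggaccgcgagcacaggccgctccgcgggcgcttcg
PACSIN2: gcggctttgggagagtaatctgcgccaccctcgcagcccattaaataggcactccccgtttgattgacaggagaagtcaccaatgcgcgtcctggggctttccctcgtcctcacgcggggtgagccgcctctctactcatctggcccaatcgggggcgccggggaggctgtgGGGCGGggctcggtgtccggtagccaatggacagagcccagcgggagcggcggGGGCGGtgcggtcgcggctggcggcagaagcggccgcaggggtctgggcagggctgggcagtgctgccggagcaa
The CAV2 window held 43 CpG and 6 GC boxes at a GC content of 82.7%, and 95% of the 34943 windows of all genes held fewer CpG. The CAV1 window held 19 CpG and 3 GC boxes at 62.3% GC, against a median of 14 CpG and 58.7% GC in all windows. EHD2 had 30 CpG and 1 GC box, and PACSIN2 had 27 CpG and 2 GC boxes. RefSeq gives several starts for 3 of the genes, and the CpG count ran from 18 to 36 over the 3 windows of CAV1, from 33 to 43 over the 2 of CAV2 and from 3 to 27 over the 6 of PACSIN2. A GC box is common, present in 44.9% of all windows. Neither TGANTCA, the AP-1 motif, nor GGAATG, the TEAD motif, was found on either strand of these 4 windows, and they were found in 7.72% and 14% of all windows. The window of SDPR, not shown because that gene had no expression values, held 1 TEAD motif. These are descriptions of letters in 1 window per gene.

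The 6 coat genes tested were all higher in the shSETD2 libraries, and the caveolins, PTRF and EHD2 rose far more than the PACSINs. For each of these genes the lowest shSETD2 library was above the highest control library, a separation found in 27.9% of all genes tested, while 53% were separated in the opposite direction. Their median log2 fold change was 2.99, against -0.29 for all genes tested. Each of the 6 had a mean of at least 0.5 FPKM in both groups, so none passed the filter through 1 group alone. With single libraries left out, 6 were called higher without control library 2 or shSETD2 library 1 and 5 without any other library, PACSIN2 being the gene that lost its call.

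CAV1 encodes the scaffold protein without which caveolae do not form outside striated muscle. Its locus, with 3 exons in the reference transcript, lies on chromosome 7 at 116164839 to 116201238 on the plus strand (GRCh37, ENSG00000105974.11_3). CAV1 was at 1.48, 1.49 and 0.988 FPKM in control, and in shSETD2 at 67.2, 75.7 and 70.4 FPKM. The groups did not approach each other, and the lowest shSETD2 library was far above the highest control library. The mean rose from 1.32 ± 0.286 to 71.1 ± 4.27 FPKM (SD, n = 3 each), a ratio of 53.9, and the log2 fold change of FPKM + 1 was 4.96 (SE 0.10, limma adjusted p = 9.64e-08). Only 71 of the genes tested had a higher log2 fold change. In the order of all listed genes by mean level, CAV1 stood above 25.3% of them in control and above 97.7% in shSETD2.

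CAV2, the partner that joins CAV1 in mixed oligomers and needs it to leave the Golgi, lies next to it at 115927434 to 116148595 on the same strand (ENSG00000105971.14_2), and 16243 bases separate the annotated end of CAV2 from the start of CAV1. CAV2 was at 0.693, 1.90 and 1.31 FPKM in control, and in shSETD2 at 19.4, 22.4 and 19.5 FPKM. Control library 1 was the lowest of its group, and again no library of one group entered the range of the other. The mean rose from 1.30 ± 0.605 to 20.4 ± 1.70 FPKM (SD, n = 3 each), with a log2 fold change of 3.25 (SE 0.19, limma adjusted p = 9.15e-06).

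PTRF, the cavin that binds caveolin oligomers and builds the outer shell, was the most abundant coat transcript of the shSETD2 libraries. It lies on chromosome 17 at 40554470 to 40575535 on the minus strand (ENSG00000177469.12_3). PTRF was at 4.66, 5.04 and 4.55 FPKM in control, and in shSETD2 at 154.6, 147.8 and 157.5 FPKM. The 3 libraries of each group lay close together. The mean rose from 4.75 ± 0.260 to 153.3 ± 4.98 FPKM (SD, n = 3 each), a ratio of 32.3, with a log2 fold change of 4.75 (SE 0.05, limma adjusted p = 9.77e-09). PTRF moved from above 53.6% of the listed genes to above 99.2%.

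The other cavins gave no comparison. SDPR, which shapes membrane curvature, was not listed. PRKCDBP, which binds protein kinase C delta, was at 0 in each control library, reached 0.0213 FPKM in shSETD2 library 3 with 0 in the other two, and was not tested. An absent SDPR transcript and one removed by an unnamed filter of the authors cannot be told apart.

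EHD2, an ATPase that forms rings at the caveolar neck and holds the pit at the membrane, lies on chromosome 19 at 48216600 to 48246391 on the plus strand (ENSG00000024422.11_3). EHD2 was at 1.96, 2.53 and 2.51 FPKM in control, and in shSETD2 at 21.99, 19.8 and 21.9 FPKM. Each shSETD2 library was far above each control library. The mean rose from 2.33 ± 0.323 to 21.2 ± 1.27 FPKM (SD, n = 3 each), a ratio of 9.10, with a log2 fold change of 2.74 (SE 0.09, limma adjusted p = 5.79e-07).

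The PACSINs bend and stabilise membrane, PACSIN2 in most cells and PACSIN3 mainly in muscle. PACSIN3 (chromosome 11, 47199076 to 47207994, minus strand, ENSG00000165912.15_3) was at 5.16, 6.09 and 5.43 FPKM in control, and in shSETD2 at 9.42, 9.17 and 10.8 FPKM. Its groups stayed apart, and its log2 fold change was 0.72 (SE 0.08, limma adjusted p = 2.34e-04). PACSIN2 (chromosome 22, 43231418 to 43411151, minus strand, ENSG00000100266.18_3) was at 9.01, 11.6 and 10.3 FPKM in control, and in shSETD2 at 11.9, 17.9 and 15.6 FPKM. The highest control library nearly reached the lowest shSETD2 library. The log2 fold change of PACSIN2 was 0.50 (SE 0.16, limma adjusted p = 0.0235), and this call was lost when control library 1, control library 3, shSETD2 library 2 or shSETD2 library 3 was left out, with log2 fold changes of 0.42, 0.50, 0.38 and 0.47 and limma adjusted p = 0.0763, 0.0594, 0.0656 and 0.0683. The locus of PACSIN2 overlaps on the same strand with ARFGAP3, which was at a mean of 16.1 FPKM in control and 19.7 FPKM in shSETD2, so reads of the shared stretch could be given to either gene.

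**Figure D1:**
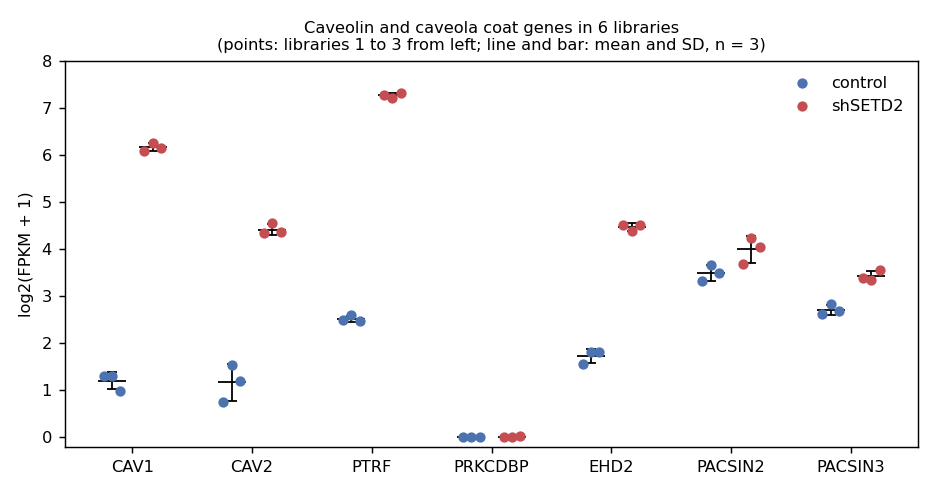
Level of each listed coat gene on the log2(FPKM + 1) scale (vertical axis) in the control libraries (blue) and the shSETD2 libraries (red), with the mean and SD of 3 libraries as line and bar. CAV1 and PTRF stand at 71.1 and 153.3 FPKM in shSETD2 against 1.32 and 4.75 FPKM in control, the PACSINs lie closer together, and PRKCDBP stays at or near 0 in both groups.

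**Figure D2:**
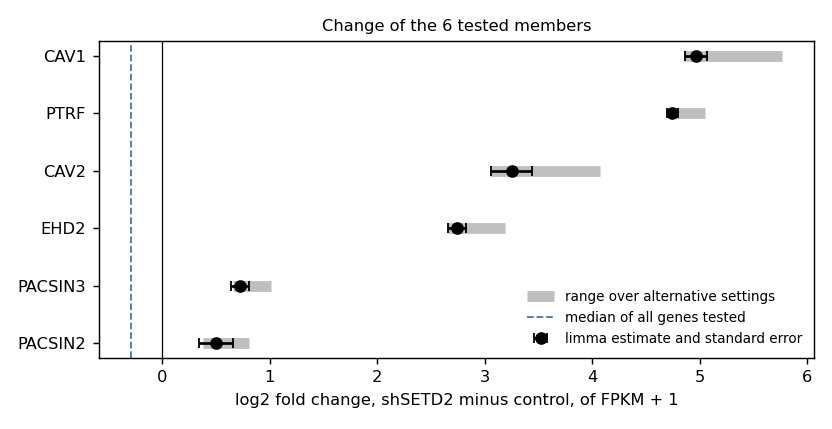
Log2 fold change of FPKM + 1, shSETD2 minus control (horizontal axis), of the 6 tested coat genes, with the limma estimate and standard error (point and bar), the range over 16 alternative settings (grey) and the median of all genes tested (dashed line at -0.29). All 6 lie to the right of 0 in every setting, from PACSIN2 at 0.50 to CAV1 at 4.96.

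Against the median of all genes the differences were larger. On that relative scale the log2 fold changes were 5.25 for CAV1, 5.04 for PTRF, 3.54 for CAV2, 3.03 for EHD2, 1.01 for PACSIN3 and 0.79 for PACSIN2. The median itself depended on how libraries were scaled and was -0.10 with quantile normalization and -0.03 with median ratio scaling. With median ratio scaling, 5215 genes were called higher and 5505 lower, so the higher share of all calls was 48.7% in place of 34.1%. All 6 coat genes remained called higher under both scalings. For each coat gene alone, an exact two-sided permutation test of 3 libraries against 3 gave p = 0.1, the smallest p this design allows.

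The coat genes also changed their order. In every control library PACSIN2 was the most abundant coat transcript, followed by PACSIN3, PTRF and EHD2, and the caveolins came last among the genes above 0.5 FPKM. The ranges of CAV1 and CAV2 overlapped there, and CAV1 was the higher of the pair only in control library 1. In every shSETD2 library PTRF came first and CAV1 next, and PACSIN2 and PACSIN3 stood below CAV2 and EHD2. CAV2 and EHD2 were not ordered in shSETD2, since EHD2 was the higher in libraries 1 and 3 and CAV2 in library 2.

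The summed FPKM of the listed coat genes was 23.0, 28.7 and 25.1 in the control libraries and 284.5, 292.7 and 295.7 in the shSETD2 libraries. The make-up of that sum differed between the groups. PTRF made up 20.3%, 17.6% and 18.1% of it in control and 54.3%, 50.5% and 53.3% in shSETD2. The share of CAV1 was 6.46%, 5.18% and 3.94% in control and 23.6%, 25.8% and 23.8% in shSETD2. PACSIN2, the largest part in control with 39.2%, 40.6% and 41.1%, took 4.18%, 6.12% and 5.28% in shSETD2, where its own level was higher. The EHD2 share was lower in every shSETD2 library, at 8.54%, 8.81% and 10.01% in control and 7.73%, 6.75% and 7.41% in shSETD2. These shares add to 100% in a library, so they are not independent of each other.

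**Figure D3:**
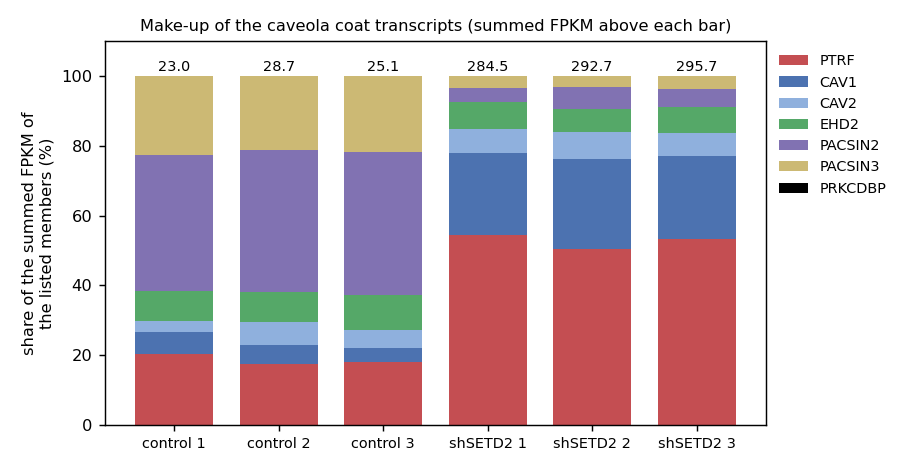
Share of the summed FPKM of the listed coat genes (vertical axis, percent) taken by each gene in each library, with the sum in FPKM above each bar. PTRF and CAV1 fill 54.3% and 23.6% of the bar of shSETD2 library 1, against 20.3% and 6.46% in control library 1, where PACSIN2 holds 39.2%.

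Ratios within a library were set side by side for 4 pairs of coat partners or family relatives. The planned ratios of PTRF to SDPR and to PRKCDBP were left out, since SDPR was not listed and PRKCDBP was at 0 in control. The ratio of CAV1 to CAV2 was 2.14, 0.780 and 0.753 in control, and 3.46, 3.38 and 3.61 in shSETD2. The ratio was nearly constant in shSETD2 and uneven in control, where library 1 stood apart with its low CAV2 value, and the groups did not overlap. The log2 ratio differed by 1.69 (SD 0.86 in control, 0.05 in shSETD2, n = 3 each, exact permutation p = 0.1, adjusted over 4 pairs to 0.2). CAV1 stood to PTRF at 0.318, 0.294 and 0.217 in control and at 0.435, 0.512 and 0.447 in shSETD2, a difference in log2 ratio of 0.76 (exact permutation p = 0.1, adjusted 0.2) that was 0.22 once 1 FPKM was added to each value. PACSIN2 stood to PACSIN3 at 1.75, 1.91 and 1.90 in control and at 1.26, 1.95 and 1.44 in shSETD2, with overlapping groups (exact permutation p = 0.4, adjusted 0.4). EHD2 to EHD1, a recycling ATPase of the same family, also overlapped, at 0.396, 0.489 and 1.01 in control and 0.651, 0.792 and 0.804 in shSETD2 (exact permutation p = 0.4, adjusted 0.4). No pair could pass the threshold with 3 libraries a group.

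The close relatives of the coat genes moved in both directions. Of 6 paralogs, 5 were listed and tested, of which 2 were called higher and 3 lower, with a median log2 fold change of -0.88. Among all genes tested, 26.8% were called higher and 51.8% lower. Counts in the lists below are to be read beside these shares. With a mean FPKM of at least 5 required, 0 paralogs were called lower, since CAV3, MURC and EHD3 were not tested. CAV3, the caveolin of muscle, was at 0.759, 1.06 and 1.22 FPKM in control and listed at 0 in all shSETD2 libraries (limma adjusted p = 8.2e-05). It passed the filter on low values through the control group alone. Its locus overlaps on the opposite strand with OXTR, SSUH2 and RAD18, and the use of strand in the counting is not stated in the sources used here. Mean FPKM in control and shSETD2 was 10.99 and 7.05 for RAD18, called lower, and 0.394 and 1.25 for OXTR, called higher. SSUH2 was not tested. MURC (CAVIN4), the muscle cavin, was at 2.48, 2.20 and 2.57 FPKM in control and at 0.915, 0.678 and 1.00 FPKM in shSETD2, with a log2 fold change of -0.88 (limma adjusted p = 1.09e-04). Both muscle paralogs were lower in shSETD2, as were 51.8% of all genes tested. For CAV3, which passed the filter through control alone, no other direction was possible.

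Within the EHD family, EHD1 moved with EHD2 and EHD3 did not. EHD1 was at 4.95, 5.16 and 2.50 FPKM in control and at 33.8, 24.9 and 27.2 FPKM in shSETD2, a log2 fold change of 2.54 (SE 0.24, limma adjusted p = 8.18e-05). EHD3, which acts in endosome recycling, was at 3.48, 3.37 and 3.17 FPKM in control and at 0.419, 0.461 and 0.359 FPKM in shSETD2, with a log2 fold change of -1.62 (limma adjusted p = 1.10e-06). EHD4, an endosomal ATPase, rose by 0.39 on the log2 scale (limma adjusted p = 8.65e-04). PACSIN1, the neuronal PACSIN, was not listed.

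CAV1 and CAV2 lie on chromosome 7 between TES and MET, which were also higher in shSETD2. Of the 5 other genes listed within 500 kb of CAV1, all annotated on the plus strand, 4 were called higher, against 26.8% of all genes tested, and 2 of these 4 calls did not hold with single libraries left out. MET, the receptor of hepatocyte growth factor, whose middle lies 192 kb from that of CAV1 (116312444 to 116438440), was at 6.95, 7.80 and 6.92 FPKM in control and at 50.7, 54.9 and 53.6 FPKM in shSETD2, a log2 fold change of 2.72 (SE 0.06, limma adjusted p = 1.2e-07). TES, a LIM protein of focal adhesions on the other side of CAV2 (115850547 to 115898837), was at 7.05, 5.996 and 7.99 FPKM in control and at 27.5, 20.2 and 26.5 FPKM in shSETD2, a log2 fold change of 1.68 (SE 0.14, limma adjusted p = 5.02e-05). The log2 fold change was highest at CAV1 and lower at each listed gene on either side. CAPZA2, which caps actin filaments, had a log2 fold change of 0.72 (limma adjusted p = 0.0328) and ST7 one of 0.28 (limma adjusted p = 0.0393). Both calls were lost when control library 2, shSETD2 library 1 or shSETD2 library 2 was left out, with values for CAPZA2 of 0.54, 0.69 and 0.53 and for ST7 of 0.18, 0.30 and 0.25, that of CAPZA2 also without control library 1, at 0.81, and that of ST7 also without shSETD2 library 3, at 0.29. ST7-OT4, a transcript that overlaps ST7, was lower by a log2 fold change of -0.45 (limma adjusted p = 2.14e-03) and not called with quantile normalization, at -0.07. Nothing was tested for the stretch as a whole.

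**Figure D4:**
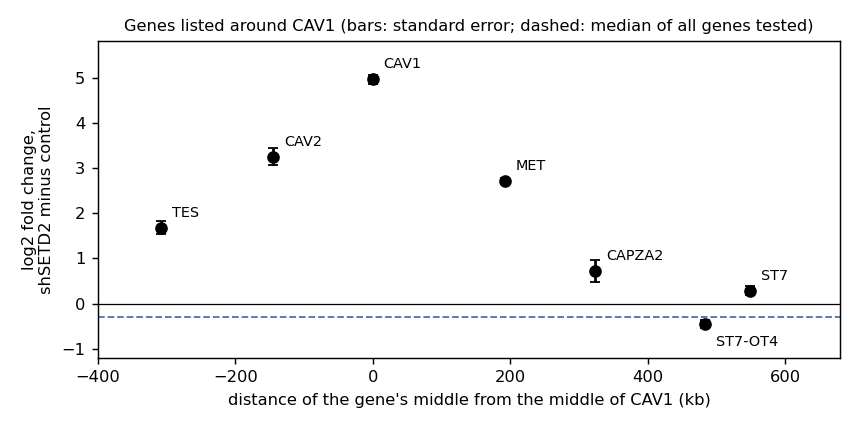
Log2 fold change of FPKM + 1, shSETD2 minus control (vertical axis), of the genes listed within 500 kb of CAV1, by the distance in kb of the middle of each gene from the middle of CAV1 (horizontal axis), with standard errors as bars and the median of all genes tested as a dashed line. The value is 4.96 at CAV1 and 1.68 at TES, the last gene on one side, and on the other side 2.72 at MET, 0.72 at CAPZA2, -0.45 at ST7-OT4 and 0.28 at ST7.

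By the distance between centred log2(FPKM + 1) values over the 6 libraries, the genes whose pattern was most like that of CAV1 were PHLDA1, TNFSF18, SDC4, THBS1 and EPHA2, at distances of 0.23, 0.29, 0.33, 0.33 and 0.35. For PTRF they were SDC4, EPHA2, AC140479.5, SPRY4 and LUCAT1, at 0.09, 0.13, 0.19, 0.23 and 0.24. SDC4, the heparan sulfate proteoglycan syndecan-4, and EPHA2, an ephrin receptor, were on both lists, and SDC4 was at 6.64, 7.54 and 6.39 FPKM in control and at 211.9, 212.1 and 212.5 FPKM in shSETD2. PTRF ranked 6 among the genes nearest to CAV1, and CAV1 ranked 19 among those nearest to PTRF. Since 131 genes had a log2 fold change over 4, and the distance includes the step between the groups, many genes lie close to both. The 1 FPKM added to each value compresses low levels. Over the alternative settings log2 fold changes reached 11.6 for TNFSF18, 8.90 for THBS1, 9.996 for AC140479.5, 7.91 for SPRY4 and 9.81 for LUCAT1. Each of these genes had a control mean of 0.0962 FPKM or less. Those of PHLDA1, SDC4, EPHA2, CAV1 and PTRF reached log2 fold changes of 6.35, 5.08, 5.10, 5.76 and 5.05. Likeness with a smaller added value was not tested.

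Genes that work beside the coat were mixed. The 13 genes tested act in the caveolar neck, in its anchoring to actin, or as kinases or a phosphatase. Of these, 7 were called higher and 5 lower, against 26.8% and 51.8% of all genes tested. Their median log2 fold change was 0.31. Filamin A, the actin crosslinker that tethers caveolae to stress fibres, rose from 64.5 ± 0.354 to 270.3 ± 13.9 FPKM (FLNA, SD, n = 3 each, log2 fold change 2.05, limma adjusted p = 1.05e-07). The tyrosine phosphatase PTPN14 had the highest value of the list at 3.10 (limma adjusted p = 3.88e-08). The lowest values were those of DNM1 and DNM3, dynamins that pinch off vesicles, at -1.97 and -1.07, and of FYN, a kinase that phosphorylates caveolin, at -1.41. With median ratio scaling 8 were called higher and 3 lower.

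Of 14 receptors, channels and enzymes known to reside in caveolae, 9 were listed and tested. Of these, 2 were called higher and 5 lower, with a median of -0.20, against shares of 26.8% and 51.8% among all genes tested. TGFBR2, the type II TGF-β receptor, rose from 3.81 ± 0.283 to 23.7 ± 0.368 FPKM (SD, n = 3 each, log2 fold change 2.36, limma adjusted p = 1.78e-07), and PLD2, a phospholipase, had a log2 fold change of 0.93. INSR, the insulin receptor, TRPC1, a calcium channel, and PTCH1, the Hedgehog receptor, had log2 fold changes of -1.31, -0.99 and -0.78. Residents typical of endothelium or adipocytes, NOS3, AQP1, PLVAP and CD36, were not listed, nor was BDKRB2. With median ratio scaling 3 were called higher and 3 lower.

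Genes of non-caveolar rafts and of clathrin coats moved in both directions. Of 9 scaffolds of non-caveolar rafts, 8 were listed and 7 tested, of which STOM (stomatin) was called higher at 1.05 and 5 were lower. Their median was -0.31, and the shares of all genes tested were 26.8% higher and 51.8% lower. The lowest were STOML2, ERLIN2 and STOML1, at -0.999, -0.87 and -0.59. The flotillins, which form flat rafts, were at -0.15 for FLOT1 and, without passing the test, at -0.07 for FLOT2 (limma adjusted p = 0.246). FLOT1 and FLOT2 lie outside the rule for named genes and were chosen after their values were seen. With median ratio scaling 3 of the 7 were called higher and 3 lower, and STOML1 lost its call with quantile normalization, at -0.04.

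Of 21 clathrin coat genes, all tested, 9 were called higher and 7 lower, against 26.8% and 51.8% of all genes tested. Their median was 0.01. The adaptor DAB2 rose from 0.829 ± 0.105 to 6.20 ± 0.352 FPKM (SD, n = 3 each, log2 fold change 1.98, limma adjusted p = 8.96e-07), BIN1, a BAR-domain protein, had a log2 fold change of 1.59 and the clathrin light chain CLTA one of 0.94. AMPH (amphiphysin) was at 3.26, 3.31 and 2.98 FPKM in control and listed at 0 in all shSETD2 libraries. EPS15L1 and FCHO1, which act early in pit formation, had log2 fold changes of -0.90 and -0.77. With median ratio scaling 14 clathrin coat genes were called higher and 3 lower.

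Of 13 F-BAR and EHD relatives, some of which are also paralogs above, 11 were listed and tested. Of these, 8 were called higher and 2 lower, with a median of 0.39, against 26.8% and 51.8% of all genes tested. After EHD1 the highest were SRGAP1, which acts in Slit-Robo signalling, at 1.44, and TRIP10, a partner of CDC42, at 1.17. The 2 that were lower were EHD3 and FCHO1.

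**Figure D5:**
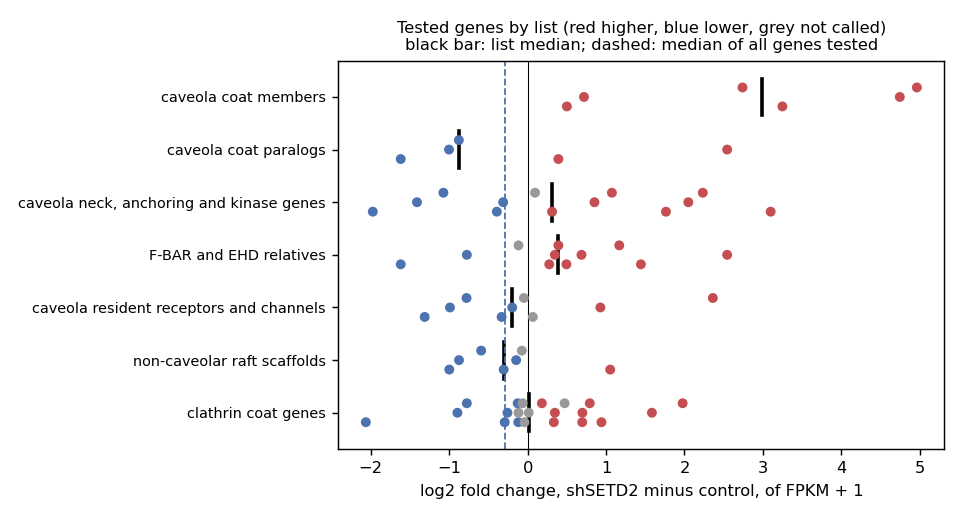
Log2 fold change of FPKM + 1, shSETD2 minus control (horizontal axis), of each tested gene of the coat, its relatives and partners, non-caveolar rafts and clathrin coats. Genes called higher are red, those called lower blue and those not called grey. The median of the coat genes (black bar) lies at 2.99, those of the other lists between -0.88 and 0.39, and the median of all genes tested (dashed line) at -0.29.

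Markers of other cell types also moved between the groups, and their part in the results above was not tested. Of 10 epithelium markers, 8 were listed and 5 tested, of which 4 were called higher and 1 lower, and their summed level was 14.3 to 16.2 FPKM in control and 406.1 to 458.9 FPKM in shSETD2. Simple-epithelium keratins made up most of that sum in shSETD2, and KRT18 rose from 10.04 ± 0.850 to 254.6 ± 15.9 FPKM (SD, n = 3 each). KRT7, another of them, was at 0, 0.0375 and 0.0250 FPKM in control and at 81.6, 77.0 and 87.1 FPKM in shSETD2, and KRT8 had a log2 fold change of 4.62, while the adhesion protein CDH1 was lower at -1.15. EPCAM, listed but not tested, had a mean of 0.710 FPKM in control and 0.220 FPKM in shSETD2. CLDN4 and ESRP1, also not tested, went from means of 0.0670 and 0.0176 FPKM to 0.175 and 0.803 FPKM.

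Of 12 mesenchymal markers, 10 were listed and 9 tested, of which 3 (VIM, FN1 and CDH2) were called higher and 5 lower, and their sum was 122.7 to 137.5 FPKM in control and 170.1 to 180.3 FPKM in shSETD2. VIM and FN1 had log2 fold changes of 0.99 and 1.03. That of CDH2 was 0.17, and its call was lost without control library 3, shSETD2 library 2 or shSETD2 library 3, at 0.13, 0.15 and 0.14, and with quantile normalization, at 0.03. The lowest were the transcription factor SNAI2 at -3.92, TWIST1, listed at 0 in all shSETD2 libraries, and the matrix protein SPARC at -2.42.

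Few markers of the cell types known for caveolae were listed. Of 10 endothelium markers only ESAM, a junction protein, was listed, at 0.537, 0.281 and 0.423 FPKM in control and at 48.4, 42.0 and 46.1 FPKM in shSETD2, while PECAM1, CDH5 and VWF were not listed. Of 10 muscle markers, 4 were listed and 2 tested, with ACTA2 called lower at -1.34 and a sum of 5.94 to 7.23 FPKM in control and 1.60 to 1.74 FPKM in shSETD2. Of 7 adipocyte markers, 2 were listed and 1 tested, PPARG, called higher at 0.38, with a sum of 5.15 to 5.23 FPKM in control and 5.28 to 6.50 FPKM in shSETD2, and ADIPOQ and PLIN1 were not listed.

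All 10 kidney lineage markers were listed and 9 tested, of which 5 were called higher and 4 lower, with a sum of 26.3 to 28.3 FPKM in control and 61.0 to 72.1 FPKM in shSETD2. PAX8 was at 0.0147, 0.0368 and 0 FPKM in control and at 35.2, 28.1 and 29.2 FPKM in shSETD2, and PAX2 had a log2 fold change of 2.66. SALL1 and SIX2 were listed at 0 in all shSETD2 libraries, with 7.09 to 8.01 FPKM and 5.19 to 5.84 FPKM in control. The libraries thus differed in markers of cell lineage in the same comparison in which the coat genes differed.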

How the data were processed

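RNA of 6 libraries of H1650 cells was sequenced by the authors on an Illumina HiSeq with a KAPA Stranded kit. The authors mapped reads to hg19 (GRCh37) with Hisat2, quantified genes with Ballgown and deposited FPKM of 15897 genes per library. Versions, strand setting and any filter behind the list of genes are not given in the sources used here. A second deposited table repeats these FPKM for 15120 genes without difference and adds the authors' own fold changes and p-values, which were not used. Low values were not whole multiples of 1 step, so the depth is unknown and precision is given by the spread over 3 libraries.

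The 14068 genes whose FPKM averaged 0.5 or more were fitted on log2(FPKM + 1) with limma 3.58.1 (intensity trend, R 4.3.3), with the group as the only term. P-values were adjusted after Benjamini-Hochberg across the tested genes (threshold 0.05). The change of low genes is understated on this scale. Some named genes that are not members had a mean below 0.5 FPKM in 1 group and passed the filter through the other alone. Examples through control were CAV3, EHD3, DNM3, STOML1, FCHO1, AMPH, CDH1, SNAI2, TWIST1, SPARC, SALL1, SIX2 and NKX2-1. Examples through shSETD2 were KRT7, ESAM, PAX8, TNFSF18, THBS1, SPRY4 and LUCAT1. Ratios between genes used FPKM without a pseudocount and an exact two-sided permutation test. The fit was tested on simulated data in which few genes were changed. That test does not cover a difference in most genes, as found here. Python 3.11.15, numpy 2.4.6, pandas 2.3.3, scipy 1.17.1 and matplotlib 3.10.9 were used. Alternatives were pseudocounts of 0.1 and 0.01, other filters, 3 other scalings, other variance models, a replicate block and each library left out.

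The members and the 13 other gene lists, written by hand, were chosen with earlier results of these data known. Named genes were the members, SETD2, up to 3 highest and 3 lowest called genes of each list, the genes listed within 500 kb of CAV1, and the 5 genes nearest to CAV1 and to PTRF. Some genes that this selection covers are not reported here. Promoter windows came from RefSeq (GRCh38.p14), which held windows for 5 of the 8 members, and gene positions from the deposited table (GRCh37), with exons from GENCODE 44 lifted to that build.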

Additional observations from a re-analysis of the deposited data

How the results depend on the processing

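The direction of all 6 tested coat genes held under all 16 alternatives, and 5 of the 6 kept their call in each. The exception was PACSIN2, whose log2 fold change of 0.50 did not pass in an ordinary linear model per gene without limma's moderation (adjusted p = 0.0743) and ranged from 0.38 to 0.65 with single libraries left out, so the number of coat genes called higher was 5 or 6 and the number called lower 0. SETD2 passed the test with the replicate block (-0.58, limma adjusted p = 0.0156), and ranged from -0.83 to -0.45 with single libraries left out, passing without control library 2 or shSETD2 library 3, and was -0.27 with median ratio scaling. With a mean FPKM of at least 5, fewer genes were tested, and 2401 were called higher and 3246 lower in place of 3774 and 7283. The difference in the log2 ratio of CAV1 to PTRF was 0.22 with a pseudocount of 1 and 0.68 with 0.1, against 0.76. With the replicate number as a block, 3733 genes were called higher and 7243 lower, and all 6 coat genes kept their call, while CAPZA2, ST7 and CDH2 lost theirs (limma adjusted p = 0.071, 0.0762 and 0.0569). Deviations of libraries with the same number correlated at -0.0237, 0.0177 and -0.0077, so the numbers were not taken as a pairing. Of 61 other named genes, 56 kept their direction and call under every alternative in which they were tested. The call was lost in some for 5 (STOML1, CDH2, CAPZA2, ST7 and ST7-OT4), and 0 reversed. Genes such as CAV3, EHD3 and TWIST1 were not tested with a mean FPKM of at least 5, so they had 15 alternatives. Except for the filter, the cause of these changes was not tested. The unknown depth limits values near 0, such as those of PRKCDBP.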
